A study of Mus musculus with 12 samples.

Results

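This account covers 35 genes of DNA replication and S phase in the neocortex of mouse embryos at embryonic day 16. They were taken by gene symbol from a list of replication factors chosen with earlier results of these data known. Each symbol matched 1 of the 23352 gene rows of the authors' deposited table. RNA was taken from microdissected neocortex in 12 libraries of 4 groups. The group labelled Nfia knockout (4 libraries, homozygous) and its wild types (2 libraries) came from the line Nfia{tm1Rmg}(C57BL/6), and the Nfib knockouts (4 libraries, homozygous) and their wild types (2 libraries) came from the line Nfib{tm1Rmg}(C57BL/6). Groups were read from titles and strain, since the growth protocol names the Nfia allele in both places where a line is named. The comparisons ask whether replication transcripts differ when either transcription factor gene is disrupted, and whether the lines differ. The labels do not say that libraries came from separate embryos, so the deposited p-values may measure a technical spread.

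Before a cell divides, its DNA is copied once. Licensing factors load the ring-shaped MCM helicase onto origins in G1, cyclin E and the E2F factors open S phase, and helicase, primase, polymerases, sliding clamp and ligase then make the new strands while nucleotides and histones are supplied to them. In the embryonic cortex this programme runs in radial glia and intermediate progenitors, which divide at and near the ventricle, and is shut off in the neurons they produce, so replication transcripts are used as a readout of dividing cells. Nuclear factor I (NFI) proteins, to which NFIA and NFIB belong, promote the passage of these progenitors from proliferation to the production of neurons and glia. In tissue RNA, fewer cells of a type and less RNA per cell cannot be told apart.

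Levels are the authors' group averages in FPKM, which are fragments scaled to the length of the transcript and the size of the library, with 1 value per gene and group. The table thus gives no spread over libraries, and the depth is unknown. The precision of a fold was read from the deposited p-value: the size of a log2 fold over the normal deviate of that p gave its error, which was raised to the running median of genes of similar level where it was smaller. These implied errors had a median over the 35 genes of 0.17 for Nfib and 0.16 for Nfia on the log2 scale. At these errors the log2 fold needed for a q-value under 0.05 had a median of 0.52 for Nfib and 0.50 for Nfia, so folds of the size seen in most of these genes could not have been called. Rfc4, Gins2 and Ccne2 had implied errors over 0.5 in both comparisons and tell little.

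Several facts of the whole series stand beside every result. By the authors' deposited table, Nfib was at 9.12 FPKM in the Nfib knockouts and 134 FPKM in their wild types (log2 fold -3.86, q = 0.00207). Nfia was at 28.2 FPKM in the group labelled Nfia knockout and 33.7 FPKM in its wild types by the authors' deposited table (log2 fold -0.27, q = 0.477), a whole-gene value that does not check the label. The wild type groups of the lines differed in genes outside the cortex. Summed over 8 meningeal and fibroblast genes, the authors' FPKM were 4.62 in the Nfib knockouts, 13.0 in the Nfib-line wild types, 3.76 for the group labelled Nfia knockout and 4.11 in the Nfia-line wild types. The red blood cell genes summed to 91.9 FPKM in the Nfib knockouts, 314.4 FPKM in the Nfib-line wild types, 78.4 FPKM for the group labelled Nfia knockout and 120.1 FPKM in the Nfia-line wild types. Summed levels of 8 choroid plexus genes were 98.6 FPKM in the Nfib knockouts, 1.79 FPKM in the Nfib-line wild types, 2.21 FPKM for the group labelled Nfia knockout and 0.916 FPKM in the Nfia-line wild types, with 1 gene, Folr1, listed at 0 in the Nfib-line wild types. Most of that sum was Ttr, which stood at 94.8 FPKM in the Nfib knockouts and 0.346 FPKM in their wild types by the authors' deposited table. Ddx3y, on the Y chromosome, had 7.29 FPKM in the group labelled Nfia knockout, 0.0330 FPKM in its wild types, 5.89 FPKM in the Nfib knockouts and 11.5 FPKM in theirs by the authors' deposited table. Xist, a transcript of female cells, had 77.0 FPKM in the group labelled Nfia knockout, 161 FPKM in its wild types, 86.0 FPKM in the Nfib knockouts and 0.207 FPKM in theirs by the authors' deposited table. The Nfia-line wild types thus read as female, the Nfib-line wild types as male and both knockout groups as mixed. Pola1 is the only X-linked gene among the 35. For these reasons each knockout group was also set against the wild types of the other line, as a log2 ratio of group FPKM with no test. A change of wild types changes sex together with line, so their parts in these ratios cannot be told apart. Each knockout group also differs in sex from the wild types of its own line. The parts of sex and knockout in the authors' folds thus cannot be told apart either.

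In the Nfib knockouts, 3 replication genes rose and none fell: Rrm2, Uhrf1 and Mcm2, each by about the same amount. These 3 of 35 genes (8.57%) compare with 2.13% of 13729 genes tested called higher at q under 0.05 from the authors' deposited table, and 0 of 35 called lower compare with 3.26%. Below the threshold almost the whole list leaned the same way. The log2 fold was above 0 for 34 of the 35 genes, against 49.1% of all genes tested, and its median was 0.23, against -0.0049 over all genes tested. At an unadjusted p under 0.05 there were 8 genes higher (22.9%, against 6.25% of all) and none lower (7.18% of all), namely Mcm2, Mcm3, Mcm4, Mcm6, Rrm2, Tyms, Pole and Uhrf1. These genes share cells and are not independent, so the counts describe the list.

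The regions before the transcription starts of the 3 genes that rose are shown because they are the sequences nearest to the called changes. They are 250 bases long, from RefSeq on GRCm38.p6, a later build than the mm9 of the deposited table. Capitals mark CCAAT letters on either strand and the E2F letters TTTCGCGC.
Mcm2, chr6:88898781-88899030, minus strand: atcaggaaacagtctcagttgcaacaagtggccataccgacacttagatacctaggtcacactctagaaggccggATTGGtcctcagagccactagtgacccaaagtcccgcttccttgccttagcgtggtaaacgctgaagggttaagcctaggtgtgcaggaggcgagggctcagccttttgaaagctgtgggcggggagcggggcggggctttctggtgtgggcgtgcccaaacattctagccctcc
Rrm2, chr12:24708004-24708253, plus strand: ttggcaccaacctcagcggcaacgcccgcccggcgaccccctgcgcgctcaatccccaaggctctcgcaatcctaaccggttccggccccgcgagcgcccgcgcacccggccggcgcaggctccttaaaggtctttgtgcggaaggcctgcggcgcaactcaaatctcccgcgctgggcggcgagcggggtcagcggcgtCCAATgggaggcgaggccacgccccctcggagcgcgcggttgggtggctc
Uhrf1, chr17:56304063-56304312, plus strand: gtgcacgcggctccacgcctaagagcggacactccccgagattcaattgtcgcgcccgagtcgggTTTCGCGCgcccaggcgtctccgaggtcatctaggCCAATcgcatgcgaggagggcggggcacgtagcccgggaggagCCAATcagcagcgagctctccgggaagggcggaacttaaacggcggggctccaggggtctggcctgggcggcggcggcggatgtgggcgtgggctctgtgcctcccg
The stretch shown for Uhrf1 precedes the later of its 2 RefSeq starts. It holds the E2F letters once and CCAAT 2 times, the stretch of Rrm2 holds CCAAT once, and that of Mcm2 holds it once on the opposite strand. The stretch before the earlier Uhrf1 start, which is not shown, holds no E2F letters.

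Rrm2 encodes the small subunit of ribonucleotide reductase, the enzyme that makes deoxynucleotides, and is the subunit whose supply follows S phase. By the authors' deposited table it averaged 45.3 FPKM in the Nfib knockouts, 32.5 FPKM in the Nfib-line wild types, 33.1 FPKM for the group labelled Nfia knockout and 39.6 FPKM in the Nfia-line wild types. The Nfib knockouts were the highest of the 4 groups and the wild types of their own line the lowest. Its log2 fold by the authors' deposited table was 0.50 (q = 0.0162, implied error 0.15), a rise of 41.8%. Over the Nfia-line wild types the log2 ratio was 0.20, so the size of the rise depended on which wild types it was set against.

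Uhrf1, which brings the maintenance DNA methyltransferase to newly copied DNA, averaged 19.5 FPKM in the Nfib knockouts, 14.2 FPKM in their wild types, 14.2 FPKM for the group labelled Nfia knockout and 15.6 FPKM in its wild types by the authors' deposited table. One group stood above the other 3, which lay within a narrow range. The log2 fold by the authors' deposited table was 0.48 (q = 0.0442, implied error 0.16), a rise of 39.0%, and the log2 ratio over the Nfia-line wild types was 0.32.

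Mcm2, a subunit of the hexameric MCM helicase that also binds histones, averaged 21.6 FPKM in the Nfib knockouts, 15.8 FPKM in their wild types, 15.9 FPKM for the group labelled Nfia knockout and 17.5 FPKM in its wild types by the authors' deposited table. The pattern over the groups was that of Uhrf1. The log2 fold by the authors' deposited table was 0.47 (q = 0.0455, implied error 0.16), a rise of 38.5%, and the log2 ratio over the Nfia-line wild types was 0.30.

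**Figure D1:**
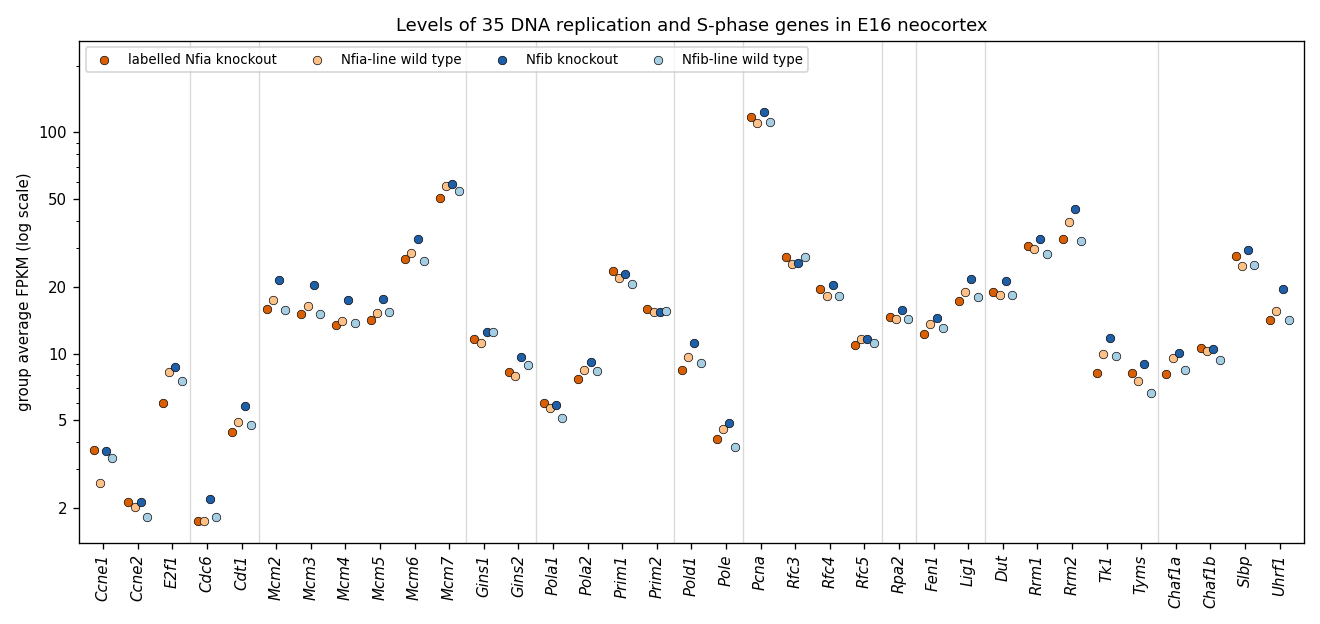
Group averages of the 35 genes in FPKM on a log axis, 1 point per group, with genes along the horizontal axis in order of role. Pcna is highest in every group, and the points of a gene lie close together, the Nfib knockouts being the highest group for Rrm2 (45.3 FPKM), Uhrf1 (19.5 FPKM) and Mcm2 (21.6 FPKM).

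The other subunits of the MCM ring stood on the same side without passing the threshold. Mcm3 was nearest to it, at 20.4 FPKM in the Nfib knockouts and 15.1 FPKM in their wild types by the authors' deposited table (log2 fold 0.46, q = 0.0738). Mcm6 was at 33.0 FPKM in the Nfib knockouts and 26.2 FPKM in their wild types (0.36, q = 0.183) by the authors' deposited table. Mcm4 was at 17.4 FPKM in the Nfib knockouts and 13.8 FPKM in their wild types (0.35, q = 0.228) by the authors' deposited table. Each of these 3 subunits was at an unadjusted p under 0.05. The smallest log2 folds of the ring by the authors' deposited table were those of Mcm5 (0.22, q = 0.666) and Mcm7 (0.13, q = 0.905). All 6 subunits were above 0, with a median of 0.35 and a range of 0.13 to 0.47. Their 95% intervals overlap, and differences between subunits were not tested. Over the Nfia-line wild types all 6 log2 ratios were again above 0, with a median of 0.26 and a range of 0.036 for Mcm7 to 0.31 for Mcm3.

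Enzymes of nucleotide supply gave a median log2 fold of 0.29 over 5 genes, all above 0. Tyms, thymidylate synthase, averaged 9.01 FPKM in the Nfib knockouts and 6.66 FPKM in their wild types by the authors' deposited table (0.46, q = 0.114). The salvage enzyme Tk1, thymidine kinase, was at 11.8 FPKM in the Nfib knockouts and 9.77 FPKM in their wild types (0.29, q = 0.734) by the authors' deposited table. Rrm1, the large subunit of ribonucleotide reductase, stood at 33.1 FPKM in the Nfib knockouts and 28.1 FPKM in their wild types (0.26, q = 0.468), a smaller log2 fold than that of its partner Rrm2 by the authors' deposited table. Dut, which clears dUTP so that uracil is kept out of DNA, was at 21.3 FPKM in the Nfib knockouts and 18.4 FPKM in their wild types (0.23, q = 0.656) by the authors' deposited table.

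Among the genes that start S phase, none of the 3 G1/S factors and neither licensing factor passed the threshold. E2f1, a transcription factor that drives S-phase genes, was at 8.72 FPKM in the Nfib knockouts and 7.54 FPKM in their wild types (0.23, q = 0.774) by the authors' deposited table. The cyclin Ccne1, which with CDK2 triggers origin firing, was at 3.62 FPKM in the Nfib knockouts and 3.37 FPKM in their wild types (0.12, q = 0.994) by the authors' deposited table. Its paralog Ccne2 was at 2.14 FPKM in the Nfib knockouts and 1.83 FPKM in their wild types (0.24, q = 0.998) by the authors' deposited table. Cdc6 and Cdt1, which load the MCM ring, had log2 folds at 0.29 (q = 0.753) and 0.31 (q = 0.670) by the authors' deposited table, close to the median of the ring they load. Both are transcripts of low level, Cdc6 at 2.21 FPKM in the Nfib knockouts and 1.84 FPKM in their wild types and Cdt1 at 5.82 FPKM in the Nfib knockouts and 4.78 FPKM in their wild types, by the authors' deposited table.

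The enzymes that copy the strands gave no call. Pole, the catalytic subunit of the leading-strand polymerase, averaged 4.87 FPKM in the Nfib knockouts and 3.79 FPKM in their wild types (0.38, q = 0.269) by the authors' deposited table. Pold1, the catalytic subunit of the lagging-strand polymerase, was at 11.2 FPKM in the Nfib knockouts and 9.11 FPKM in their wild types (0.32, q = 0.409) by the authors' deposited table. Their log2 ratios over the Nfia-line wild types were 0.089 for Pole and 0.21 for Pold1, so the value for Pole rested largely on its own line's wild types. The primase and polymerase alpha genes, which lay the primers, had log2 folds at 0.21 (Pola1), 0.16 (Prim1), 0.15 (Pola2) and 0.0084 (Prim2) by the authors' deposited table, with q of 0.774 or more. Lig1, the ligase that seals Okazaki fragments, and Fen1, the nuclease that trims them, had log2 folds at 0.28 (q = 0.523) and 0.18 (q = 0.861) by the authors' deposited table.

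The sliding clamp with its loader and the GINS genes gave the lowest medians of any role with 2 or more genes, 0.12 and 0.083. Pcna, the clamp that tethers polymerases to DNA and the most abundant of the 35 transcripts, was at 123 FPKM in the Nfib knockouts and 111 FPKM in their wild types (0.17, q = 0.791) by the authors' deposited table. Its implied error of 0.14 was the smallest of the list, which gives a 95% interval of -0.11 to 0.45. The clamp loader genes Rfc4, Rfc5 and Rfc3 had log2 folds at 0.18, 0.07 and -0.06 by the authors' deposited table, each with q = 0.998. Rfc3, at 25.8 FPKM in the Nfib knockouts and 27.4 FPKM in their wild types by the authors' deposited table, was the 1 gene of the list with a fold below 0. Gins1 and Gins2, of the GINS complex that joins the helicase, had log2 folds at 0.019 and 0.15 by the authors' deposited table (q = 0.998 each), and Rpa2, which coats single-stranded DNA, 0.15 (q = 0.917). Prim2 (15.4 FPKM in the Nfib knockouts, 15.6 FPKM in their wild types) and Gins1 (12.58 FPKM in the Nfib knockouts, 12.59 FPKM in their wild types) had slightly lower averages in the knockouts beside folds just above 0 by the authors' deposited table.

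Genes that rebuild chromatin behind the fork gave a median log2 fold of 0.26 over 4 genes, of which Uhrf1 alone was called. Chaf1a and Chaf1b, subunits of the histone chaperone CAF-1, had log2 folds at 0.28 (q = 0.559) and 0.19 (q = 0.870) by the authors' deposited table. Slbp, which binds the stem-loop of histone messages, averaged 29.3 FPKM in the Nfib knockouts and 25.2 FPKM in their wild types (0.24, q = 0.629) by the authors' deposited table.

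Setting the Nfib knockouts against both wild type groups left the lean of the list in place and made it smaller. Their average was above both wild type averages for 31 of 35 genes (88.6%), against 28.2% of all genes tested, the exceptions being Gins1, Prim2, Rfc3 and Rfc5. The log2 ratio over the Nfia-line wild types was above 0 for 34 of 35 genes, against 48.5% of all, with Rfc5 at -0.0091, and its median was 0.18, against -0.0050 over all genes tested. Summed over the 35 genes, the authors' FPKM were 705.9 in the Nfib knockouts, 610.7 in their wild types and 632.1 in the Nfia-line wild types. The order of the genes by size was not kept: Rrm2 led over its own wild types, while Ccne1 led over the Nfia-line wild types at 0.48, with Cdc6 at 0.34 and Uhrf1 at 0.32. Ccne1 had the largest gap between the wild type groups, at 2.59 FPKM in the Nfia line and 3.37 FPKM in the Nfib line by the authors' deposited table.

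**Figure D2:**
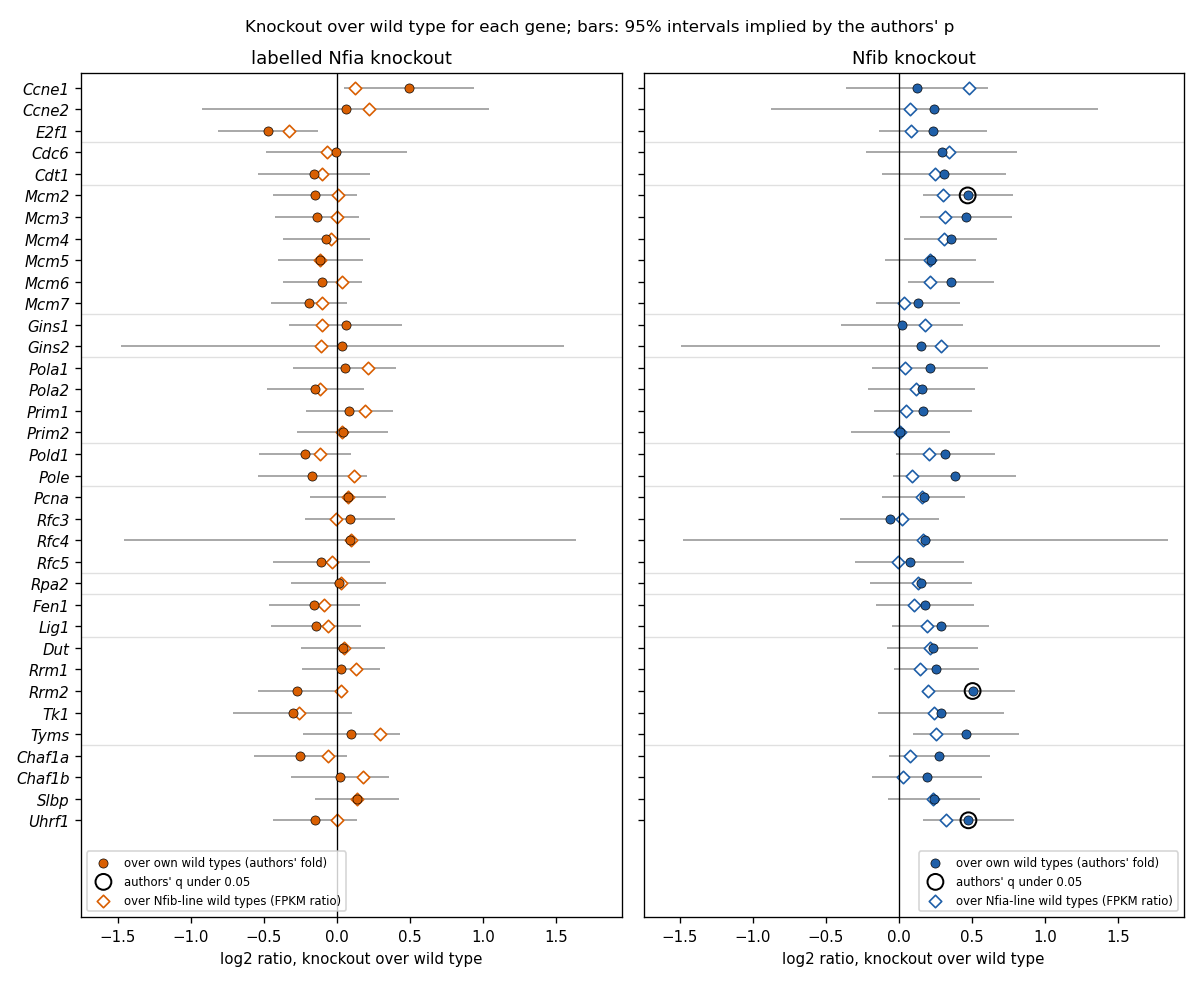
Log2 folds of the 35 genes by the authors' deposited table (group labelled Nfia knockout left, Nfib knockout right), knockout over the wild types of its own line, with bars of 95% from the implied error and a second marker for the log2 ratio over the other line's wild types. In the Nfib panel 34 of 35 folds lie to the right of 0 and 3 are called, and in the Nfia panel 16 of 35 lie to the right of 0 and none is called.

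In the group labelled Nfia knockout no replication gene was called. The counts of 0 of 35 higher and 0 of 35 lower stood beside 2.69% of 13736 genes called higher and 1.1% called lower by the authors' deposited table. The list was spread around 0: 16 of 35 log2 folds were above 0, against 49.1% of all genes tested, and the median was -0.07, against -0.0033 over all genes tested. At an unadjusted p under 0.05, Ccne1 was higher (1 of 35, 2.86%, against 6.38% of all) and E2f1 and Rrm2 were lower (2 of 35, 5.71%, against 3.69% of all). Of the 35 averages, 13 lay above both wild type averages, against 32.2% of all genes tested, and 13 lay below both, against 31.7%. Over the Nfib-line wild types 18 of 35 log2 ratios were above 0, against 48.4% of all, and the median was 0.00097.

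E2f1 and Ccne1 were the genes farthest from 0 in this comparison, on opposite sides. E2f1 averaged 6.00 FPKM in the group labelled Nfia knockout and 8.25 FPKM in its wild types (log2 fold -0.47, p = 0.0069, q = 0.130) by the authors' deposited table. It was also below the 7.54 FPKM of the Nfib-line wild types, with a log2 ratio of -0.33, so the group was the lowest of the 4. Ccne1 averaged 3.68 FPKM in the group labelled Nfia knockout and 2.59 FPKM in its wild types (0.49, p = 0.0299, q = 0.365, implied error 0.23) by the authors' deposited table. Its log2 ratio over the Nfib-line wild types was 0.13, a value with no error of its own. Rrm2 had a log2 fold at -0.27 (p = 0.0467, q = 0.478) by the authors' deposited table and a log2 ratio of 0.03 over the Nfib-line wild types.

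By role, all 6 subunits of the MCM ring had log2 folds below 0 in the group labelled Nfia knockout by the authors' deposited table, with a median of -0.12 and a range of -0.19 for Mcm7 to -0.07 for Mcm4. None was near a call (q of 0.789 or more by the authors' deposited table), and over the Nfib-line wild types 3 of the 6 log2 ratios were above 0. The replicative polymerases and the Okazaki fragment enzymes had medians of -0.19 and -0.15, and Tk1 and Chaf1a log2 folds of -0.30 (q = 0.784) and -0.25 (q = 0.727) by the authors' deposited table. Over the Nfib-line wild types the polymerase median was 0.0019, with Pole at 0.12 and Pold1 at -0.12. There the median of the Okazaki fragment enzymes was -0.07, and the log2 ratios of Tk1 and Chaf1a were -0.26 and -0.06. The clamp and its loader had a median of 0.08, with Pcna at 118 FPKM in the group labelled Nfia knockout and 111 FPKM in its wild types (0.08, q = 0.999) by the authors' deposited table. After Ccne1, the highest log2 folds of genes with an implied error under 0.5 were those of Slbp (0.14), Tyms (0.10), Rfc3 (0.09) and Prim1 (0.09) by the authors' deposited table.

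The difference between the lines was tested gene by gene, as the Nfib fold minus the Nfia fold over both implied errors combined, with p adjusted by Benjamini-Hochberg over 13554 genes. This is an approximation in place of an interaction term, and each fold keeps its own wild types, which differ in sex between the lines. Rrm2 alone passed: its log2 fold was 0.78 higher in the Nfib knockouts than in the group labelled Nfia knockout (error 0.20, adjusted p = 0.00632 from the authors' p-values). That is 1 of 35 genes (2.86%), against 3.78% of all genes tested. At an unadjusted p under 0.05 there were 8 genes (22.9%, against 12.4% of all), all with the higher fold in the Nfib knockouts. After Rrm2 these were, from the authors' p-values, Mcm2 (difference 0.62, adjusted p = 0.0838), Uhrf1 (0.62, adjusted p = 0.0865), E2f1 (0.70, adjusted p = 0.114), Mcm3 (0.59, adjusted p = 0.119), Pold1 (0.54, adjusted p = 0.265), Mcm6 (0.46, adjusted p = 0.274) and Chaf1a (0.53, adjusted p = 0.291). Mcm2 and Uhrf1, called in the Nfib knockouts and not in the group labelled Nfia knockout, are thus not shown to differ between the lines. The Nfib fold exceeded the Nfia fold for 31 of 35 genes, against 50.2% of all, the exceptions being Ccne1, Gins1, Prim2 and Rfc3.

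**Figure D3:**
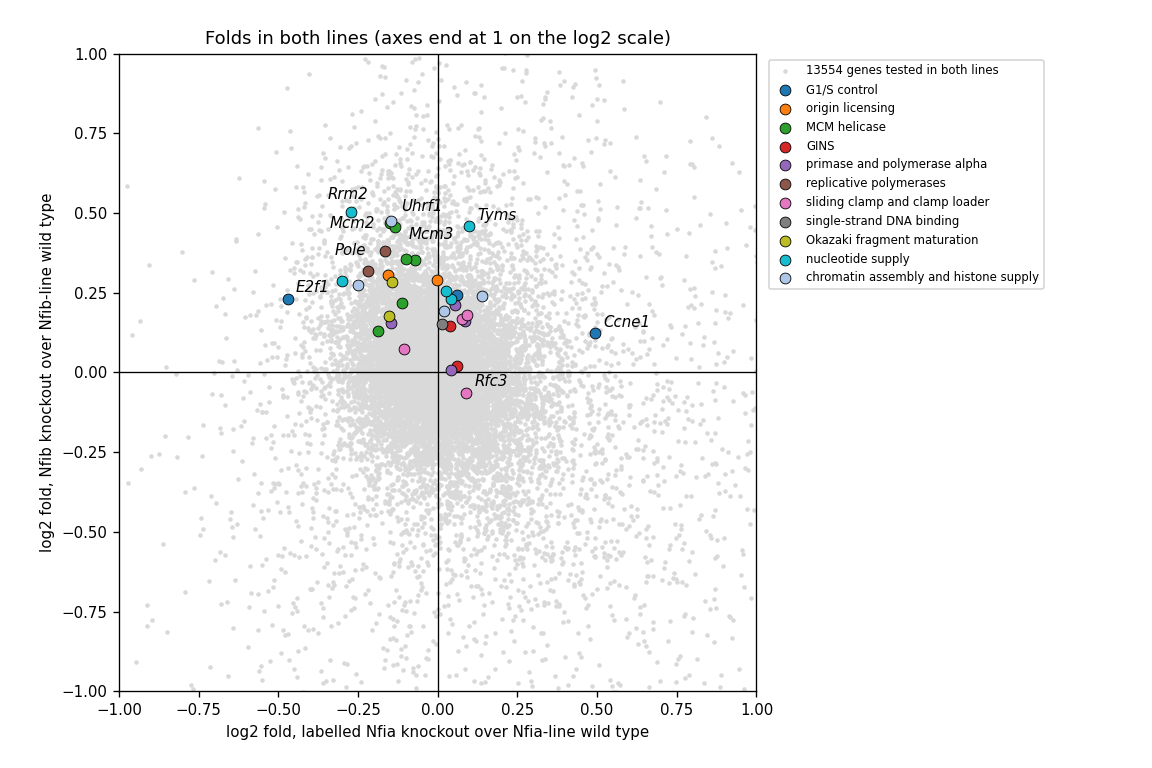
Log2 fold in the group labelled Nfia knockout (horizontal) against the log2 fold in the Nfib knockouts (vertical), both over own wild types by the authors' deposited table, with the 35 genes coloured by role over 13554 genes tested in both lines in grey. Rrm2 lies at -0.27 and 0.50, E2f1 at -0.47 and 0.23 and Ccne1 at 0.49 and 0.12, and most of the 35 points lie above the horizontal line at 0.

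The wild type groups of the lines also stood apart from each other. The log2 ratio of Nfib-line over Nfia-line wild types had a median of -0.06 over the 35 genes, against 0.03 over all genes tested. It was below 0 for 24 of 35 genes, against 6045 of 13559 genes tested in both lines. It was lowest for Rrm2, at -0.29, and Pole, at -0.27, and highest for Ccne1, at 0.38. For Rrm2 both the knockout groups and the wild type groups thus entered the difference between the lines. The knockout groups were also set directly against each other, with no test. The Nfib knockouts were above the group labelled Nfia knockout in 29 of 35 genes, against 6432 of 13559 genes tested. The median log2 ratio of the 35 was 0.23, against -0.0097 over all genes tested. The largest of these ratios were those of E2f1 (0.54), Tk1 (0.53), Uhrf1 (0.46), Rrm2 (0.45) and Mcm2 (0.44). The smallest were those of Rfc3 (-0.08), Prim1 (-0.05), Prim2 (-0.05), Pola1 (-0.03), Ccne1 (-0.02) and Chaf1b (-0.0093).

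The levels themselves are of transcripts in tissue RNA, on a scale per transcript length, and not of the proteins. All 35 transcripts were at 1 FPKM or more in every group. Pcna stood at 111 to 123 FPKM over the 4 groups by the authors' deposited table, and the next were Mcm7, at 50.5 to 58.5 FPKM, and Rrm2, at 32.5 to 45.3 FPKM. At the low end were Cdc6, at 1.75 to 2.21 FPKM, Ccne2, at 1.83 to 2.14 FPKM, and Ccne1, at 2.59 to 3.68 FPKM, by the authors' deposited table. Within the ring, whose 6 subunits are present in equal number in the protein complex, the transcript levels were unequal, Mcm7 being 3.36 times Mcm4 in the Nfib knockouts, 3.92 times in their wild types, 3.75 times in the group labelled Nfia knockout and 4.07 times in its wild types. The order Mcm7, Mcm6, Mcm2, Mcm3, Mcm5, Mcm4 was found in 3 groups, and in the Nfib-line wild types Mcm5 (15.4 FPKM) and Mcm3 (15.1 FPKM) changed places by the authors' deposited table, with no error for a level. The ribonucleotide reductase subunits were near to each other in the group labelled Nfia knockout, at 33.1 FPKM for Rrm2 and 30.7 FPKM for Rrm1 by the authors' deposited table. In the Nfib knockouts they were farther apart, at 45.3 FPKM for Rrm2 and 33.1 FPKM for Rrm1 by the authors' deposited table. Across the 35 genes the order of levels was nearly the same in all groups, with Spearman coefficients of 0.983 to 0.994 between pairs of groups, a description of genes measured in the same libraries.

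Other genes of the cell cycle were read from lists chosen by function, with earlier results of these data known. Of 47 further replication genes none was called in either line. Among all genes tested, 2.13% were called higher and 3.26% lower in the Nfib knockouts, and 2.69% and 1.1% in the group labelled Nfia knockout. In the Nfib knockouts 7 of the 47 were higher at an unadjusted p under 0.05, against 6.25% of all genes tested. There were 39 above 0, against 49.1% of all, and the median log2 fold was 0.22, near that of the 35 genes. Over the Nfia-line wild types the median log2 ratio was 0.14, with 40 of the 47 above 0, against 48.5% of all. The replicative topoisomerase gene Top2a had the smallest p, at 50.8 FPKM in the Nfib knockouts and 38.4 FPKM in their wild types (log2 fold 0.42, q = 0.0575) by the authors' deposited table. Ticrr, which activates origins, had a log2 fold at 0.57 (q = 0.179) by the authors' deposited table. Their log2 ratios over the Nfia-line wild types were 0.18 for Top2a and 0.25 for Ticrr. In the group labelled Nfia knockout the median of these 47 was 0.012, and 25 were above 0, against 49.1% of all genes tested. Orc5, an origin recognition subunit, had the smallest p there, at 14.5 FPKM in the group labelled Nfia knockout and 10.8 FPKM in its wild types (0.41, q = 0.216) by the authors' deposited table.

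Of 24 further G1/S regulators, 4 rose and 0 fell in the Nfib knockouts, against 2.13% of all genes tested called higher and 3.26% lower. Their median log2 fold was 0.25. Over the Nfia-line wild types the median log2 ratio was 0.14, with 16 of 24 above 0, against 48.5% of all genes tested. Those that rose include pocket proteins that hold E2F factors in check, Rbl1 (log2 fold 0.64, q = 0.0162) and Rb1 (0.44, q = 0.0476), by the authors' deposited table. The others were E2f8, a repressor of E2F targets (0.67, q = 0.0266), and Cdk6, a kinase that inactivates pocket proteins (0.76, q = 0.0201), by the authors' deposited table. Over the Nfia-line wild types these log2 ratios were 0.36 for Rbl1, 0.35 for E2f8, 0.16 for Rb1 and -0.0020 for Cdk6, so the value for Cdk6 was found only over its own line's wild types. None of the 24 was called in the group labelled Nfia knockout, the smallest p being that of the phosphatase gene Cdc25a (-0.43, q = 0.114) by the authors' deposited table, and the median was -0.10.

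Mitosis genes stood higher than replication genes in the Nfib knockouts, with a median log2 fold of 0.44. Of the 20, 6 rose and 0 fell, against 2.13% of all genes tested called higher and 3.26% lower. At an unadjusted p under 0.05 there were 18 higher, against 6.25% of all. Mki67, a protein of dividing cells that coats mitotic chromosomes, was at 30.1 FPKM in the Nfib knockouts and 20.7 FPKM in their wild types (0.56, q = 0.00532) by the authors' deposited table, and its log2 ratio over the Nfia-line wild types was 0.12. The kinase gene Plk1 had a log2 fold at 0.59 (q = 0.0290) by the authors' deposited table and 0.47 over the Nfia-line wild types. Over the Nfia-line wild types the median of the 20 was 0.29. None of the 20 was called in the group labelled Nfia knockout, where the median was -0.01. Whether the medians of the mitosis and replication lists differ was not tested.

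Some markers of progenitors and neurons passed the threshold in the same comparison, and most did not. The counts called stand beside shares of all genes tested, 2.13% higher and 3.26% lower in the Nfib knockouts. In the group labelled Nfia knockout these shares were 2.69% and 1.1%. Among radial glia genes, 2 of 13 rose and 0 fell in the Nfib knockouts, with Pax6, a transcription factor of cortical radial glia, at 30.4 FPKM in the Nfib knockouts and 19.9 FPKM in their wild types (log2 fold 0.63, q = 0.00385) by the authors' deposited table. Of these 13 genes 8 had folds above 0, and on the other side were Fam107a (-1.32, q = 0.111), a gene below 1 FPKM in every group, and Ptprz1 (-0.26, q = 0.519), by the authors' deposited table. Among intermediate progenitor genes, 3 of 9 rose and 0 fell, with the proneural gene Neurog2 at 57.6 FPKM in the Nfib knockouts and 34.1 FPKM in their wild types (0.77, q = 0.00207) by the authors' deposited table. Of these 9 genes 8 had folds above 0. By the authors' deposited table Eomes (0.25, q = 0.493) and Insm1 (0.09, q = 0.975) were not called, and Mfap4 stood on the other side (-0.41, q = 0.258). Among neuron genes, 2 of 13 rose and 0 fell, Tbr1 having a log2 fold of 0.76 (q = 0.00207) by the authors' deposited table. The medians of these 3 lists were 0.06, 0.41 and 0.17 over own wild types, and 0.36, 0.32 and -0.03 over the Nfia-line wild types. Genes of the ventral forebrain, which a cortical dissection can include, gave 8 of 12 lower and 0 higher in the Nfib knockouts, with a median of -0.74, which was -0.32 over the wild types of the Nfia line. Meningeal genes gave 7 of 8 lower with a median of -1.77, and of 0.17 over the wild types of the Nfia line. In the group labelled Nfia knockout, intermediate progenitor genes gave 0 of 9 higher and 3 lower, Eomes, a T-box factor of these cells, being at 27.2 FPKM there and 40.4 FPKM in its wild types (-0.58, q = 0.00286) by the authors' deposited table, and ventral forebrain genes gave 6 of 12 higher and 0 lower with a median of 0.66. Over the Nfib-line wild types that median was 0.13, with 7 of 12 log2 ratios above 0. Of the other tissue lists, the Nfib knockouts had 4 of 5 choroid plexus genes higher, 3 of 6 red blood cell genes lower, 1 of 8 endothelial and pericyte genes lower and 0 of 7 microglia genes called. The group labelled Nfia knockout had 1 of 1 choroid plexus gene higher, 1 of 4 red blood cell genes and 1 of 13 neuron genes lower, and none called among 12 radial glia, 5 meningeal, 8 endothelial and pericyte and 7 microglia genes. The part of progenitor numbers, dissection and other tissue in the values of the replication genes was not tested.

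**Figure D4:**
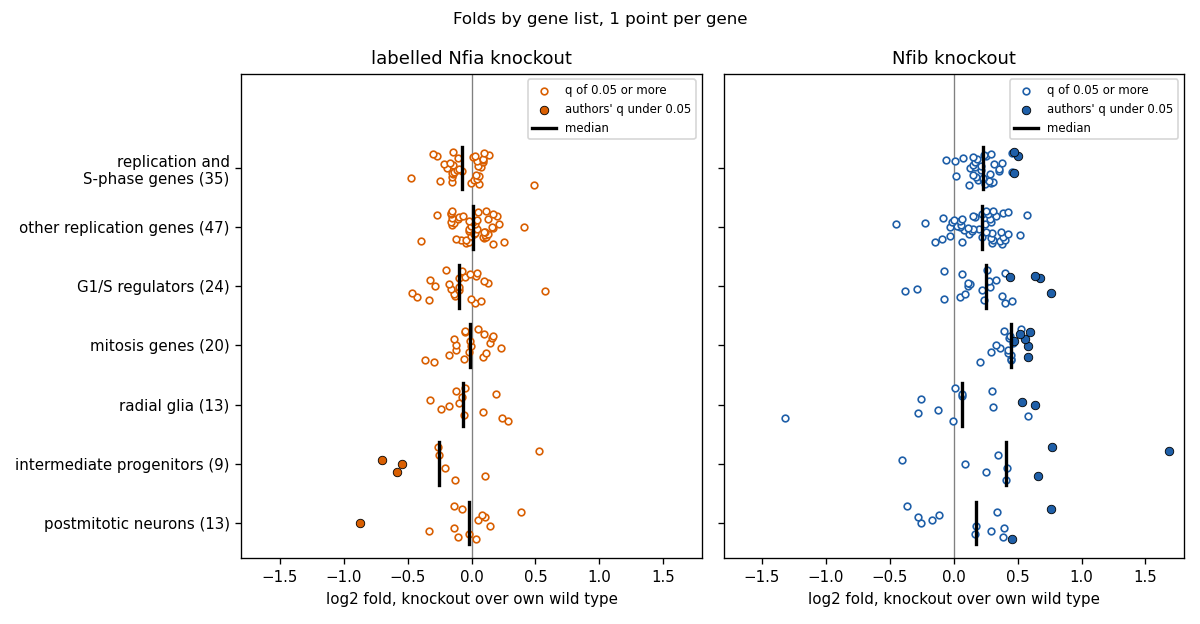
Log2 folds over own wild types by the authors' deposited table for the 35 replication and S-phase genes and 6 other lists, 1 point per gene, in the group labelled Nfia knockout (left) and the Nfib knockouts (right), filled where q was under 0.05, with a bar at each median. In the Nfib panel the medians of the 35 genes (0.23), the other replication genes (0.22), the G1/S regulators (0.25) and the mitosis genes (0.44) lie to the right of 0, and in the Nfia panel these medians lie between -0.10 and 0.012.

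E2F factors bind short letters near the starts of many S-phase genes, so the RefSeq windows of the list were searched for TTTGGCGC, TTTCCCGC, TTTGCCGC and TTTCGCGC on both strands. Windows reach from 250 bases before to 50 bases after a start, and 29 of the 35 genes had at least 1, with 34 windows in all. Windows for Ccne2, Gins1, Gins2, Mcm4, Pole and Prim2 were not used here. Any of the 4 E2F letter runs was found in 11 of 29 genes (37.9%), against 2.6% of 27025 genes with a window. These were Cdc6, Cdt1, Lig1, Mcm3, Mcm5, Mcm6, Mcm7, Pola1, Pold1, Rfc3 and Uhrf1. There were 17 matches, 9 of them within 100 bases of the start, and 5 genes held 2 or more. CCAAT was found in 15 of 29 genes (51.7%), against 41.1% of all. The NFI letters, TTGGC and GCCAA separated by any 5 bases, were found for 0 of 29 genes, against 0.0444% of all, so few genes of any kind held them in full. TTGGC also lies inside TTTGGCGC, and the last letter of TTTCGCGC starts a CCAAT in Mcm7.

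Stretches of Mcm5 and Mcm6 are shown because these helicase genes hold overlapping or repeated letters before the start, with 20 bases on each side and the E2F letters in capitals.
Mcm5, chr8:75109336-75109387, plus strand: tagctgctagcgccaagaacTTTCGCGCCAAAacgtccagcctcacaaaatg
Mcm6, chr1:128359784-128359835, minus strand: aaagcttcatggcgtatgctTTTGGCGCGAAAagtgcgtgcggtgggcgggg
Mcm6, chr1:128359725-128359772, minus strand: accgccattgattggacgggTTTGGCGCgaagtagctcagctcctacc
In Mcm5 and in the first stretch of Mcm6 the runs TTTCGCGC and TTTGGCGC overlap on opposite strands, so that the capitals read as 1 longer block. Coordinates and sequences are those of RefSeq on GRCm38.p6.

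**Figure D5:**
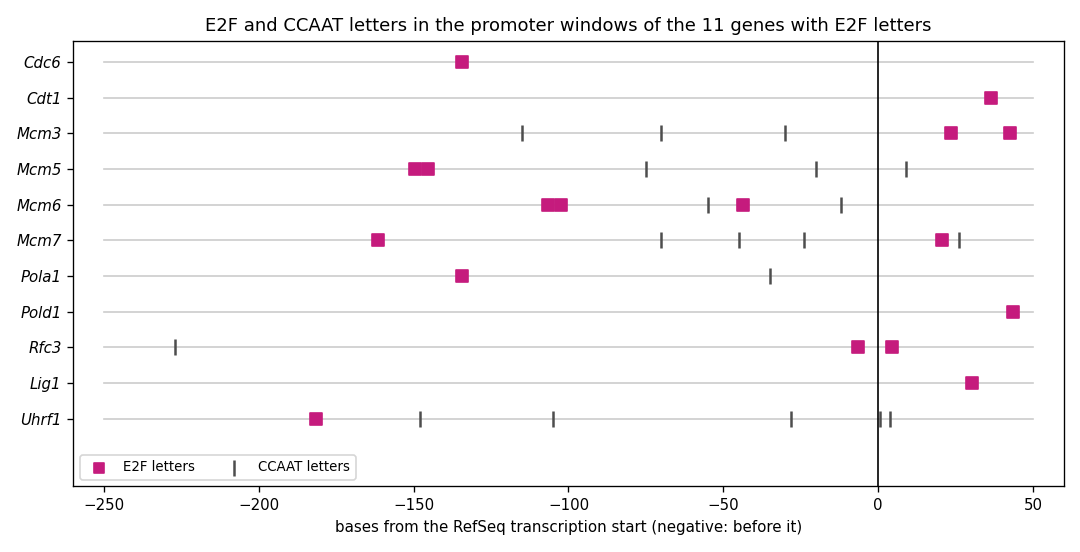
Positions of E2F letters (squares) and CCAAT (ticks) in the RefSeq windows of the 11 genes that hold E2F letters, in bases from the transcription start, with all windows of a gene drawn on 1 line. E2F matches lie between -185 and 47, with 2 or more in Mcm3, Mcm5, Mcm6, Mcm7 and Rfc3.

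Genes with and without these letters had overlapping folds. In the Nfib knockouts the median log2 fold was 0.29 for the 11 genes with E2F letters, with a range of -0.06 for Rfc3 to 0.48 for Uhrf1, and 0.21 for the 18 genes with a window and no such letters. Of the 3 genes that rose, Uhrf1 held the letters, only in the window of its later start, and Mcm2 and Rrm2 did not, in these windows. In the group labelled Nfia knockout the medians were -0.13 with the letters and 0.018 without. A match is a description of the window, which need not lie at the main start of a gene, so letters elsewhere would be missed. The difference between these medians was not tested.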

How the data were processed

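Total RNA of microdissected neocortex was sequenced as TruSeq libraries, per the labels' protocols. Per the submitters' processing notes the genome build was mm9, and the tools were Cuffdiff 2.1.1, Cufflinks, TopHat2 2.0.10 and CASAVA 1.8.2. How strand was used in counting is not given in the sources used here. Per the file headers, the table holds FPKM that the authors averaged within each group. Beside them stand a log2 fold, a p-value and a q-value per line, as deposited by the authors. There is no value per library, so depth and spread are unknown, and the limma fit planned for such values was replaced, as planned, by the authors' q at 0.05. The q-values lie within 7.32e-05 (Nfia) and 5.22e-07 (Nfib) of Benjamini-Hochberg values over rows with a p under 1, which count as tested.

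From these, ratios to other wild types, implied errors (running median over 501 genes) and the approximate difference between lines were computed with scipy 1.17.1, pandas 2.3.3, numpy 2.4.6 and matplotlib 3.10.9 under Python 3.11.15. The difference was also run on simulated folds with normal errors set to the implied ones. That run cannot check the implied errors themselves. The 35 genes and 12 other lists (177 genes, 175 with a row) were chosen with earlier results of these data known. All 35 genes may be named, with Nfia, Nfib and at most 4 genes per other list and comparison, those of smallest p. Ddx3y and Xist were chosen after their values were seen. Promoter windows are RefSeq's, matched by symbol. Alternatives were other q thresholds, filters, pseudocounts, centring and other wild types.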

Additional observations from a re-analysis of the deposited data

Results flagged for a closer look

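The log2 fold of Rrm2, the regulated subunit of ribonucleotide reductase, was 0.78 higher in the Nfib knockouts than in the group labelled Nfia knockout. It drew attention because the same contrast, knockout over wild type, differed between the lines by the approximate test of the difference over 13554 genes (adjusted p = 0.00632 from the authors' p-values). By the authors' deposited table the log2 folds were 0.50 in the Nfib knockouts and -0.27 in the group labelled Nfia knockout. Over the wild types of the other line the log2 ratio was 0.20 in the Nfib knockouts and 0.03 in the group labelled Nfia knockout. No group of samples had values per library, so libraries that stand apart could not be looked for.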

How the results depend on the processing

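With a stricter threshold of q under 0.01, 0 of the 3 calls in the Nfib knockouts remained, and at q under 0.1 there were 4, Mcm3 being added. Adjustment over genes at 1 FPKM or more gave 3. No gene was called in the group labelled Nfia knockout at any of these settings. The median log2 fold of the 35 genes ranged from 0.18 to 0.24 in the Nfib knockouts and from -0.10 to 0.00097 in the group labelled Nfia knockout over pseudocounts, centring, a filter at 5 FPKM and other wild types. The difference between the lines passed for 1 gene under each way of setting the errors and with folds centred, and the unadjusted count was 10 with implied errors as they stand. Over the other line's wild types, 6 of 35 genes moved by more than their implied error (Mcm2, Rrm2, Tyms, Ccne1, Pole and Chaf1a), the cause was not tested, and none of the called genes changed sign. No paired analysis was possible because the table holds no values per library. Leaving out single libraries was not run for the same reason, and error between libraries limits every value here.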
